A study of Mus musculus with 12 samples.

Results

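Runx1, Runx2, Runx3 and their partner gene Cbfb were followed through mouse scars that had or had not been stretched, with and without Tem1. The 4 genes were chosen by symbol, as the 3 Runx genes of the mouse and the gene for the subunit they share, and they were 4 of the 35976 genes listed in each count file. Scars came from male mice 8 to 12 weeks old on a C57BL/6J background, each given a 1.5-cm incision on the back and, 6 days later, a plastic device over the wound. In the traction groups the device was lengthened by 1 mm a day to 8 mm in all, and in the sham groups it was left as it was. Tem1WT/WT mice carried Tem1 (Cd248, endosialin, a surface glycoprotein of fibroblasts and pericytes), whereas in Tem1lacZ/lacZ mice the single exon of Tem1 was replaced by lacZ in every cell of the body, so that no cell type can be singled out by the deletion. Each of the 4 groups held 3 mice with 1 library per mouse, made from part of a whole scar, so all cell types of the scar were measured together.

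RUNX1, RUNX2 and RUNX3 are transcription factors that bind DNA through a shared runt domain, and CBFβ, the product of Cbfb, does not bind DNA itself but raises their affinity for it and protects them from degradation. RUNX1 is best known from the making of blood stem cells and also acts in hair follicles, RUNX2 is required for osteoblasts and for hypertrophic cartilage, and RUNX3 acts in cytotoxic lymphocytes and sensory neurons. Each Runx gene is read from a distal and a proximal promoter, and the counts per gene do not separate their transcripts.

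The motif searched here was ACCACA, or TGTGGT on the other strand, a form of the letters that RUNX proteins recognise. Other forms were not searched, so all counts and shares of the motif below are for this form. The stretches shown here are those of the distal Runx promoters that hold these letters, since all 3 genes carry them in the same arrangement. They were read from the RefSeq start sites on build GRCm38.p6, are written on the strand of the gene, and have the motif in capitals.

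Runx1, chr16:92826025-92826054, minus strand: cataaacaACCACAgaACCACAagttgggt
Runx2, chr17:44814583-44814612, minus strand: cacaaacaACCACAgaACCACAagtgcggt
Runx3, chr4:135120503-135120532, plus strand: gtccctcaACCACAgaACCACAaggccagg

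Each stretch held the motif 2 times with starts 8 bases apart, at positions 29 and 37 from the start site in Runx1, 24 and 32 in Runx2, and -134 and -126 in Runx3. The 3 stretches shared an unbroken run of 18 bases. Of 32851 windows from 250 bases before to 50 bases after a RefSeq start, 16.8% held the motif at least once on either strand, whereas 7 windows (0.0213%) held 2 motifs on 1 strand 8 bases apart. The run of 18 bases was found in 4 windows, those of Runx1, Runx2, Runx3 and Gm16225, a transcript whose start neighbours that of Runx3 on the other strand. The window of Runx2 held a further motif at -80, outside the stretch shown. The proximal windows of Runx1 and Runx3 and the window of Cbfb held 0 motifs. A match of letters is a description of these windows and not a measured site.

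The library totals were between 41536788 and 64644293 counts. Of the genes listed, 18853 passed the filter on low counts and were tested, the 4 genes among them. Cd248 was at 92.4 CPM (counts scaled to the library total with TMM factors) or more in every Tem1WT/WT library and at 0.248 CPM or less in every Tem1lacZ/lacZ library. Scar fibroblasts and endothelium were present in every library, with summed levels of 8 fibroblast markers from 17904 to 111380 CPM and of 7 endothelial markers from 265 to 935 CPM. Osteoblast markers (6 genes, with Bglap, Ibsp and Phex at 0 in some libraries) summed to 3.08 to 6.58 CPM, and chondrocyte markers (6 genes, with Col2a1 and Lect1 at 0 in some libraries) to 1.99 to 5.44 CPM. The first traction library of Tem1WT/WT stood apart, with 6793 CPM of 7 neutrophil markers, against 609 and 287 CPM in the other two of its group and 62.0 to 97.6 CPM in the sham libraries of that genotype. Ly6g, the defining neutrophil gene, was at 0 in some libraries, and the Tem1lacZ/lacZ libraries had 172 to 191 CPM of these markers in sham and 245 to 529 CPM after traction. T cell markers (6 genes) were also higher in it, at 88.8 CPM against 15.4 and 10.5 CPM in its group.

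Runx1 (ENSMUSG00000022952, chromosome 16, 92601466 to 92826149, minus strand, GRCm38) had 1722 to 6665 counts per library. In the Tem1WT/WT sham scars it was at 45.1, 48.6 and 50.01 CPM. In the Tem1WT/WT traction scars it was at 159, 95.9 and 101 CPM, so every stretched scar lay above every sham scar. The Tem1lacZ/lacZ sham scars had 65.4, 40.9 and 42.8 CPM and the Tem1lacZ/lacZ traction scars 54.1, 89.6 and 61.2 CPM, and these 2 groups overlapped. In order of the means, Tem1WT/WT traction (118 ± 34.8 CPM, SD, n = 3) came first, then Tem1lacZ/lacZ traction (68.3 ± 18.8), Tem1lacZ/lacZ sham (49.7 ± 13.7) and Tem1WT/WT sham (47.9 ± 2.52). The last 3 groups overlapped from one to the next, whereas Tem1WT/WT traction did not overlap with any other group on this scale. Without TMM factors it did, since the second Tem1lacZ/lacZ traction scar was at 97.4 CPM against 93.6 and 90.5 CPM in the second and the third Tem1WT/WT traction scar.

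Runx2 (ENSMUSG00000039153, chromosome 17, 44495987 to 44814797, minus strand) had 314 to 2095 counts per library. It was at 11.1, 11.1 and 12.3 CPM in the Tem1WT/WT sham scars. After traction it was at 23.1, 29.8 and 43.0 CPM in that genotype, again without overlap. The Tem1lacZ/lacZ scars had 9.85, 7.45 and 9.003 CPM in the sham group and 8.99, 16.9 and 11.95 CPM in the traction group. The order of the means was Tem1WT/WT traction (32.0 ± 10.2 CPM, SD, n = 3), Tem1lacZ/lacZ traction (12.6 ± 3.98), Tem1WT/WT sham (11.5 ± 0.724) and Tem1lacZ/lacZ sham (8.77 ± 1.22). The second and the third place overlapped. The highest Runx2 value was in the third traction library of Tem1WT/WT, not in the first, where Runx1 and Runx3 were highest.

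Runx3 (ENSMUSG00000070691, chromosome 4, 135120652 to 135177990, plus strand) had 274 to 2193 counts per library. The Tem1WT/WT sham scars had 9.64, 10.5 and 11.7 CPM. The stretched scars of that genotype had 52.2, 22.9 and 16.6 CPM, all above the sham scars. The Tem1lacZ/lacZ sham scars were close to each other, at 6.66, 6.50 and 6.60 CPM, and the Tem1lacZ/lacZ traction scars had 9.04, 12.8 and 11.5 CPM. The means followed the order Tem1WT/WT traction (30.6 ± 19.0 CPM, SD, n = 3), Tem1lacZ/lacZ traction (11.1 ± 1.92), Tem1WT/WT sham (10.6 ± 1.02) and Tem1lacZ/lacZ sham (6.59 ± 0.0818). The stretched scars without Tem1 thus overlapped with unstretched scars that had it.

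Cbfb (ENSMUSG00000031885, chromosome 8, 105170674 to 105217989, plus strand) had 4469 to 7916 counts per library and stayed within a narrow range. It was at 99.96, 115 and 118 CPM in the Tem1WT/WT sham scars and at 122.7, 138 and 156 CPM after traction. In the Tem1lacZ/lacZ scars it was at 111, 106 and 107 CPM in the sham group and 115, 125 and 115 CPM in the traction group. Each group overlapped with its neighbour in the order of the means, which were 139 ± 16.7, 118 ± 6.04, 111 ± 9.66 and 108 ± 2.62 CPM (SD, n = 3) for Tem1WT/WT traction, Tem1lacZ/lacZ traction, Tem1WT/WT sham and Tem1lacZ/lacZ sham.

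**Figure D1:**
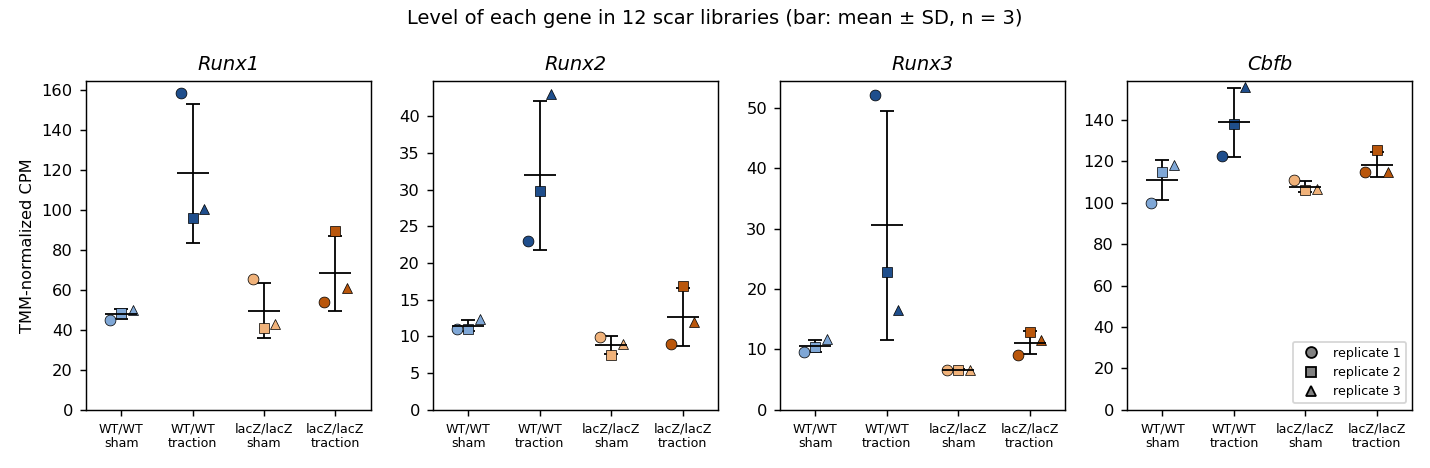
Level of Runx1, Runx2, Runx3 and Cbfb in each of the 12 libraries, in TMM-normalized CPM on an axis from 0, by group on the x axis; symbols are replicates, and the bar gives the mean ± SD of 3 mice. On this scale the Tem1WT/WT traction scars lie above the other 9 libraries for Runx1, Runx2 and Runx3 (for Runx1 not without TMM factors), while for Cbfb the groups lie between 99.96 and 156 CPM.

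The genes most like each of them over the 12 libraries were ranked by Pearson's r of log2 CPM, given as a description of libraries that share the same groups. For Runx1 they were Thbs1 (thrombospondin 1, r = 0.981), Nek6 (0.965), B4galnt1 (0.965), Sbno2 (0.962) and Bcl3 (0.961). For Runx2 they were Pcdhga10 (0.982), Cdr2l (0.978), Plod1 (0.976), a lysyl hydroxylase of collagen, Acbd3 (0.973) and Plekhg2 (0.972). For Runx3 they were Fgd3 (0.987), Armc7 (0.987), Abr (0.979), Atf1 (0.978) and Nfkbie (0.977), an inhibitor of NF-κB. For Cbfb they were Pcdhga7 (0.975), Mecom (0.974), Maged1 (0.973), Pcdh12 (0.972) and Rcn3 (0.972). The Pcdhga genes share their last exons with each other, so the counts of Pcdhga10 and Pcdhga7 are uncertain. No gene appeared beside more than 1 of the 4.

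The first question was what mechanical traction did in scars with Tem1. In Tem1WT/WT scars, traction raised all 3 Runx genes: Runx1 rose 2.47-fold, Runx2 2.78-fold and Runx3 2.88-fold. On the log2 scale these were 1.31 (SE 0.26, 95% interval 0.74 to 1.88), 1.48 (SE 0.26, 0.89 to 2.06) and 1.53 (SE 0.35, 0.77 to 2.29). The adjusted p-values of edgeR's quasi-likelihood test over all 18853 genes were 0.0282 for Runx1, 0.0252 for Runx2 and 0.0329 for Runx3. Cbfb did not pass, with a log2 fold change of 0.32 (SE 0.13, 0.04 to 0.61) and an adjusted p of 0.113. Therefore 3 of the 4 genes were called higher, where 5.61% of all tested genes were, and 4 of 4 had groups that did not overlap, where 17.7% of all tested genes did in this direction. Without TMM factors 3 of 4 did not overlap, since Cbfb was at 105.6 CPM in the first traction scar against 106.5 to 122 CPM in sham. In bulk scar RNA, more cells that express a Runx gene and more Runx RNA per cell cannot be told apart.

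The calls depended on single libraries, whereas the direction did not. The log2 fold changes stayed above 0 in all 21 other settings tried, between 1.02 and 1.45 for Runx1, 1.21 and 1.64 for Runx2, and 0.88 and 1.83 for Runx3, and 16, 18 and 15 of these settings made the call. Their adjusted p-values ran from 0.000226 to 0.122, from 1.93e-05 to 0.116 and from 0.000817 to 0.127. Without the first traction library of Tem1WT/WT, which had the high neutrophil markers, Runx2 was still called at 1.64 (edgeR adjusted p = 0.0350), while Runx1 at 1.02 (0.0532) and Runx3 at 0.88 (0.0519) were not. Leaving out the first or the second Tem1WT/WT sham library ended all 3 calls, at 1.26 and 1.34 for Runx1, 1.45 and 1.47 for Runx2, and 1.46 and 1.54 for Runx3, in fits that called 0 of all genes. Runx1 and Runx3 were also lost without the third Tem1lacZ/lacZ sham library (1.30 and 1.53), and Runx3 without the third Tem1WT/WT sham library (1.61). Cbfb was called by DESeq2 alone (0.34, adjusted p = 0.0398).

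**Figure D2:**
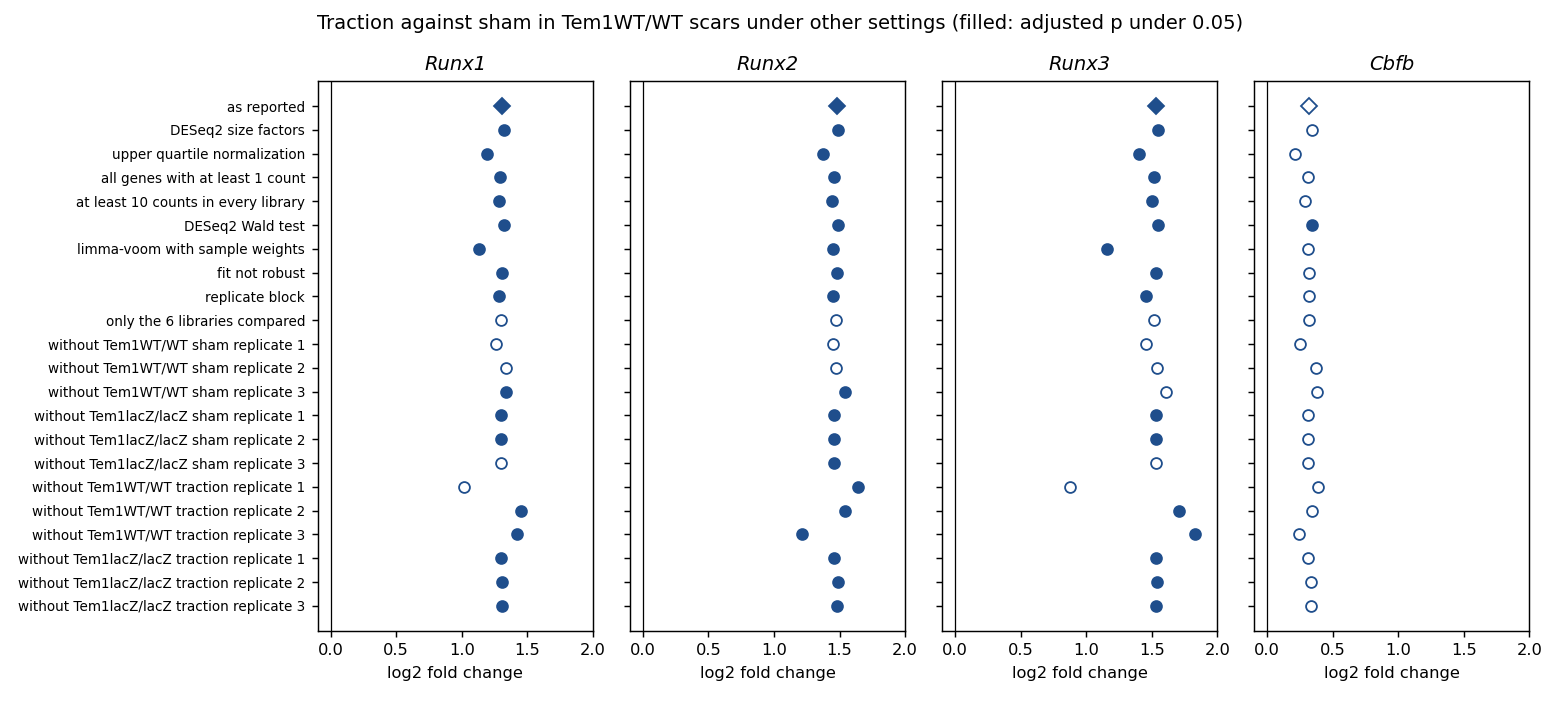
log2 fold change (x axis) of the 4 genes for traction against sham in Tem1WT/WT scars under each setting (y axis); diamonds are the values as reported, circles the 21 other settings, and filled symbols have an adjusted p under 0.05. All points of Runx1, Runx2 and Runx3 lie between 0.88 and 1.83, and those of Cbfb between 0.21 and 0.39.

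Marker genes of some cell types also changed with traction in these scars, where 5.61% of all tested genes were called higher and 3.54% lower. Among the markers, 5 of 7 endothelial genes were called higher with traction (sum 315 to 473 CPM in sham and 813 to 935 CPM after traction), as were 2 of 8 fibroblast genes (26439 to 41932 and 44151 to 111380 CPM) and 4 of 6 tested neutrophil genes. Of 8 hair follicle genes 3 were called lower, with sums from 15108 to 27981 CPM in sham and from 4095 to 7498 CPM after traction. The macrophage list had 0 of 8 genes called (2596 to 4353 and 4107 to 4839 CPM), and the T cell list 0 of 6 (25.6 to 47.9 and 10.5 to 88.8 CPM). Within the traction group, the fibroblast sum was 44151, 72614 and 111380 CPM in replicates 1, 2 and 3. This was the order of Runx2 and Cbfb, and the endothelial sum had it too. The neutrophil, T cell and mast cell sums had the order of Runx3. In stretched Tem1lacZ/lacZ scars the fibroblast sum (22725, 50094 and 45353 CPM) again had the order of Runx2 and Cbfb. There the neutrophil sum was 529, 264 and 245 CPM, highest in the first library, where Runx3 was lowest. The part of these cell types in the Runx values was not tested.

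The second question was whether the same traction acted in scars without Tem1. In Tem1lacZ/lacZ scars, no member was called, and 0 of all tested genes (0%) were, with 1530 genes at an unadjusted p under 0.05, 28 called by DESeq2 and 435 by limma-voom. The log2 fold changes were 0.46 (95% interval -0.10 to 1.02, edgeR adjusted p = 0.646) for Runx1 and 0.52 (-0.05 to 1.10, adjusted p = 0.624) for Runx2. They were 0.76 (0.00 to 1.51, adjusted p = 0.614) for Runx3 and 0.14 (-0.15 to 0.42, adjusted p = 0.780) for Cbfb. Runx3 and Cbfb had groups that did not overlap, where 6.77% of all tested genes did in the same direction, and without TMM factors Cbfb overlapped. All 4 values were above 0 in every setting tried, and none of the settings made a call. The first Tem1lacZ/lacZ traction library stood apart in keratinocyte markers (6 genes), at 40307 CPM against 13939 and 17111 CPM in its group. Without it edgeR called 73 genes, and the members were at 0.64, 0.76, 0.93 and 0.20 (adjusted p = 0.248, 0.144, 0.234 and 0.450), none of them called.

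The third question was how the genotypes differed once scars had been stretched. Runx1 was at 68.3 CPM in Tem1lacZ/lacZ and 118 CPM in Tem1WT/WT scars, and Runx2 (12.6 and 32.0) and Runx3 (11.1 and 30.6) differed in the same direction. The log2 differences were -0.79 (SE 0.26, 95% interval -1.36 to -0.23) for Runx1, -1.34 (SE 0.26, -1.92 to -0.76) for Runx2, -1.46 (SE 0.34, -2.21 to -0.70) for Runx3 and -0.23 (SE 0.13, -0.51 to 0.05) for Cbfb. None passed edgeR's test, with adjusted p-values of 0.108, 0.0829, 0.0891 and 0.275, where 0.106% of all tested genes (20) were called. The unadjusted p-values were 0.0101, 0.000342, 0.00138 and 0.1001. The 3 Runx genes did not overlap between the genotypes, being lower in each Tem1lacZ/lacZ scar, where 13.7% of all tested genes were, and without TMM factors this held for Runx2 and Runx3 but not for Runx1. DESeq2 called all 3 (-0.81, adjusted p = 0.0427, for Runx1, -1.35 and 0.000373 for Runx2, -1.48 and 0.00363 for Runx3), in a fit that called 2334 genes (12.4%). DESeq2 is the tool that the methods of the study name for differential expression, so the call between genotypes rests on which of these tests is used. Without the second traction library of Tem1WT/WT, edgeR called Runx2 (-1.39, adjusted p = 0.0278) and Runx3 (-1.63, 0.0332). That fit called 1421 of 19400 genes. Over the 21 other settings the adjusted p-values ran from 0.0427 to 0.343 for Runx1, 0.000373 to 0.295 for Runx2 and 0.00363 to 0.299 for Runx3. This comparison and traction in Tem1WT/WT share the Tem1WT/WT traction libraries, so their values are not independent. The endothelial marker sum did not overlap between Tem1lacZ/lacZ and Tem1WT/WT traction scars, at 396 to 642 and 813 to 935 CPM. The sums overlapped for fibroblasts (22725 to 50094 and 44151 to 111380 CPM) and neutrophils (245 to 529 and 287 to 6793 CPM). The hair follicle sum was higher in Tem1lacZ/lacZ without overlap, at 7804 to 13435 against 4095 to 7498 CPM, and the other marker lists overlapped. The part of these cell types in the result was not tested.

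Unstretched scars of the 2 genotypes were compared next. Runx2 was at 8.77 CPM without Tem1 and 11.5 CPM with it, and Runx3 at 6.59 and 10.6 CPM. In log2 these differences were -0.39 (95% interval -0.96 to 0.19, edgeR adjusted p = 0.559) and -0.68 (-1.44 to 0.07, adjusted p = 0.450), neither of which passed, and both had groups that did not overlap, where 13.8% of all tested genes did in that direction. Runx1 differed by 0.05 (-0.51 to 0.61, adjusted p = 0.951) and Cbfb by -0.04 (-0.32 to 0.24, adjusted p = 0.918), and the sign of both depended on the setting. Of all tested genes 0.0106% (2) were called.

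The difference between genotypes in the response to traction was tested as an interaction. It was -0.85 (SE 0.36, 95% interval -1.64 to -0.05) for Runx1, -0.95 (SE 0.37, -1.76 to -0.14) for Runx2, -0.77 (SE 0.48, -1.83 to 0.28) for Runx3 and -0.19 (SE 0.18, -0.59 to 0.21) for Cbfb. The unadjusted p-values were 0.0389, 0.0253, 0.136 and 0.319, and the edgeR adjusted p-values 0.548, 0.548, 0.617 and 0.754. No member was called, and 0 of all tested genes (0%) were, with 1680 at an unadjusted p under 0.05 and 69 called by DESeq2. With 1 library left out the Runx3 interaction ran from -1.04 to -0.09, the latter without the first Tem1WT/WT traction library. Runx1 ran from -1.09 to -0.53, reached without the same library, and Runx2 from -1.22 to -0.65. Without the second Tem1WT/WT traction library 31 genes were called, none of the 4 among them. A response of the Runx genes that differed between genotypes was therefore not shown by these tests. The paper, with its own interaction and cluster analysis, lists Runx1 among genes raised by traction in Tem1WT/WT mice and inhibited in Tem1lacZ/lacZ mice. Here none of the settings tried, DESeq2 among them, called the Runx1 interaction.

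**Figure D3:**
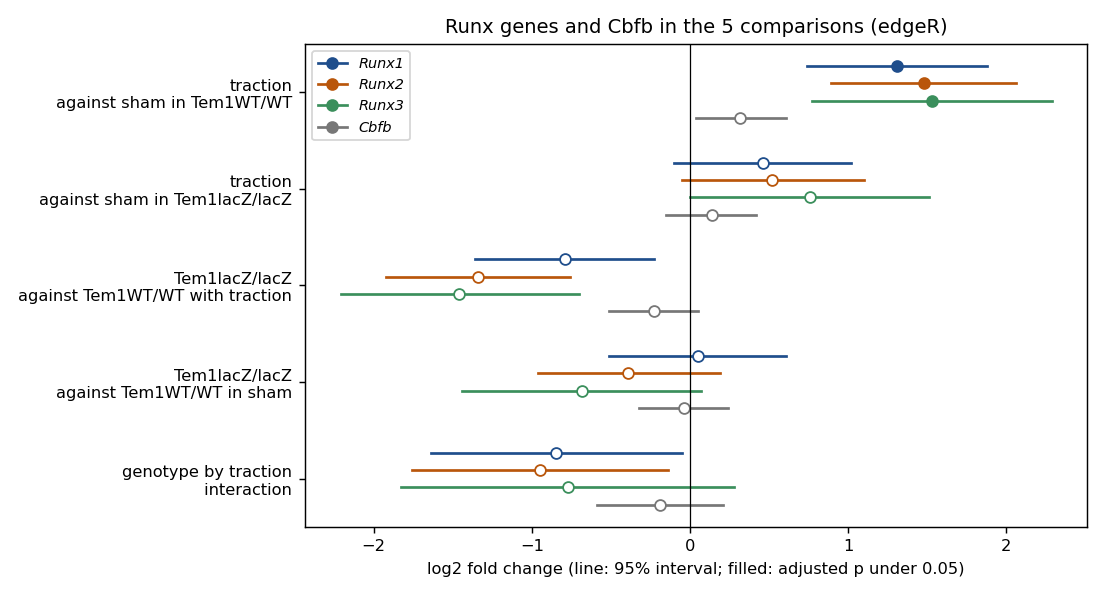
log2 fold change (x axis) with its 95% interval for Runx1, Runx2, Runx3 and Cbfb in the 5 comparisons (y axis), from edgeR over all 12 libraries; filled points have an adjusted p under 0.05. The filled points are Runx1 at 1.31, Runx2 at 1.48 and Runx3 at 1.53, all for traction in Tem1WT/WT scars.

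Levels of different genes were compared per length, as CPM per kb of exon (12.025 kb for Runx1, 8.84 kb for Runx2, 5.003 kb for Runx3 and 3.48 kb for Cbfb). On this scale Cbfb had the highest level in every library. The 3 Runx genes together had a level of 7.40 ± 0.477 CPM per kb in Tem1WT/WT sham scars, 19.6 ± 5.77 after traction in that genotype, 6.44 ± 1.26 in Tem1lacZ/lacZ sham scars and 9.33 ± 2.36 in Tem1lacZ/lacZ traction scars (SD, n = 3). The level of Cbfb per kb was 4.31 ± 0.163 times the Runx sum in Tem1WT/WT sham scars and 2.18 ± 0.732 times after traction. In Tem1lacZ/lacZ scars this ratio was 4.91 ± 0.771 and 3.77 ± 0.744. Hence the Runx sum and Cbfb came nearer to each other in stretched Tem1WT/WT scars than elsewhere, with ratios of 1.34, 2.49 and 2.71 there against 3.02 or more in the other 9 libraries.

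Runx1 was the most abundant Runx gene per kb in every library. Its share of the Runx sum was 52.8% to 54.7% in Tem1WT/WT sham and 50.1% to 50.6% in Tem1WT/WT traction scars, and 60.3% to 69.0% and 58.3% to 62.5% in the Tem1lacZ/lacZ sham and traction scars. The 6 Tem1WT/WT libraries thus all lay below the 6 Tem1lacZ/lacZ libraries in this share, a description without a test. Within stretched Tem1WT/WT scars, Runx1 kept a constant share while Runx2 and Runx3 traded places: the share of Runx2 was 9.95%, 21.2% and 29.4% and that of Runx3 39.8%, 28.7% and 20.02% in replicates 1, 2 and 3. The ratio of Runx3 to Runx2 per kb was accordingly 3.9975, 1.36 and 0.681 there, against 1.19 to 1.78 in the other 9 libraries.

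**Figure D4:**
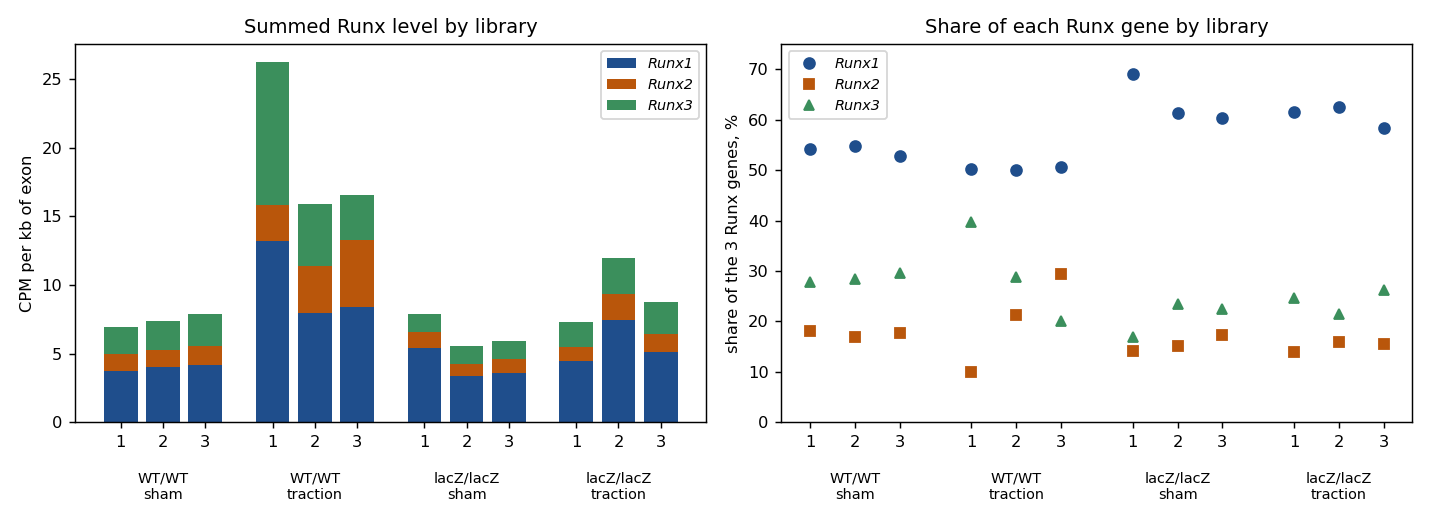
Left, level of the 3 Runx genes stacked by library, in CPM per kb of exon; right, share of each Runx gene in that sum, in percent; the x axis gives the replicate within each group. The stack is highest in the stretched Tem1WT/WT scars (15.9 to 26.2 CPM per kb), where Runx2 and Runx3 change places across the 3 libraries.

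How the genes varied together over the 12 libraries is again a description without a test of libraries that share their groups. These libraries include the stretched Tem1WT/WT scars above, so the values are not a separate view of that split. Pearson's r of log2 CPM was 0.881 between Runx1 and Runx3 and 0.914 between Runx2 and Cbfb. After each library's group mean was taken off, r was 0.695 and 0.772 for these pairs, whereas it was 0.214 for Runx1 with Runx2, -0.0434 for Runx1 with Cbfb, -0.384 for Runx2 with Runx3 and -0.541 for Runx3 with Cbfb. Before the group means were taken off, these 4 pairs had r of 0.820, 0.715, 0.757 and 0.580. In stretched Tem1WT/WT scars Runx2 was at 4.53, 4.9 and 5.43 log2 CPM and Runx3 at 5.71, 4.52 and 4.06, in opposite order. In stretched Tem1lacZ/lacZ scars their order was the same, at 3.18, 4.08 and 3.58 and at 3.18, 3.69 and 3.53. Cbfb had the order of Runx2 in both groups.

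Proteins that act with RUNX were looked at next, as a list of 21 corepressors and coactivators, all of which were tested. In Tem1WT/WT scars 2 were called higher with traction and 0 lower, where 5.61% and 3.54% of all tested genes were, with a list median of 0.30 against -0.01 over all genes. Cebpb, a transcription factor of acute inflammation that binds together with RUNX proteins, was at 114, 121 and 135 CPM in sham and 1107, 268 and 196 CPM after traction, and rose by a log2 fold change of 2.09 (edgeR adjusted p = 0.0384). Ets1, which relieves the autoinhibition of RUNX1 on DNA, was at 48.3, 53.0 and 49.9 CPM in sham and 155, 100.4 and 98.8 CPM after traction, and rose by 1.23 (adjusted p = 0.0278). Both were highest in the first traction library. Without that library Cebpb was at 0.90 (adjusted p = 0.0441) and Ets1 at 0.96 (0.0532), and 4 and 8 of the 12 fits that left out 1 library called them. The other 19, among them the Groucho corepressors Tle1 to Tle4, the acetyltransferases Ep300 and Crebbp, and Yap1 and Wwtr1, which are also known from force sensing, were not called, and the list ran from -0.35 to 2.09.

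Of 15 genes whose products inhibit or degrade RUNX proteins, 0 were called in edgeR, 6 had an unadjusted p under 0.05, and DESeq2 called 5, where 31.4% of all tested genes had such a p and DESeq2 called 21.5%. Their median was 0.21, with values from -0.71 to 1.13. The lowest p-values belonged to Smurf1, a ubiquitin ligase for RUNX2, at 48.7, 48.3 and 54.9 CPM in sham and 91.3, 63.6 and 88.0 CPM after traction (log2 fold change 0.68, adjusted p = 0.0508). Twist2, which blocks the DNA binding of RUNX2, came next, at 12.8, 14.9 and 18.3 CPM and 31.3, 19.3 and 43.6 CPM (1.03, adjusted p = 0.0535). Zfp521, an antagonist of RUNX2, was at 24.8, 25.3 and 29.5 CPM and 28.6, 44.7 and 73.2 CPM (0.88, adjusted p = 0.0800). Smurf1, Twist2, Hey1 and Stub1 were higher after traction without overlap between the groups, where 17.7% of all tested genes were. Sox9 was lower without overlap, a direction for which the share of all tested genes was not counted.

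Genes of osteoblasts and hypertrophic cartilage, where RUNX2 is known to act, formed a list of 20, of which 16 were tested. The list was not limited to targets of RUNX2. In Tem1WT/WT scars 3 were called higher with traction and 1 lower, where 5.61% and 3.54% of all tested genes were, and the list median was -0.28. Mmp13, a collagenase of hypertrophic cartilage and of remodelling matrix, was at 14.5, 11.2 and 35.2 CPM in sham and 1929, 154 and 138 CPM after traction. It rose by a log2 fold change of 5.19 (SE 1.06, edgeR adjusted p = 0.0300). Spp1, which encodes osteopontin and is also made by macrophages, was at 16.1, 48.0 and 93.5 CPM in sham and 1019, 262 and 429 CPM after traction, and rose by 3.44 (SE 0.68, adjusted p = 0.0288). Both had their highest value in the first traction library. Tnfsf11, the gene for RANKL, which drives osteoclasts, was at 0.130, 1.64 and 1.08 CPM and then at 53.5, 14.8 and 4.15 CPM, and rose by 4.64 (SE 1.22, adjusted p = 0.0429). Tnfrsf11b, the gene for osteoprotegerin, the decoy receptor for RANKL, was at 41.5, 23.2 and 46.7 CPM in sham and 19.0, 19.3 and 21.7 CPM after traction, and fell by 0.89 on the log2 scale (adjusted p = 0.0481). These 4 are not restricted to bone.

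Of the list, 4 genes were too low to test. Bglap and Mepe had at most 2 counts in a library, Bglap2 at most 6 and Ihh at most 8, so a change in them was not detectable at this depth. Alpl, the alkaline phosphatase of osteoblasts, was tested and averaged 2.72 CPM in sham and 5.80 CPM after traction (log2 fold change 1.09, adjusted p = 0.379). Without the first traction library, Mmp13 was still called at 2.83 (adjusted p = 0.0433), while Spp1 at 2.70 (0.0508), Tnfsf11 at 3.28 (0.0962) and Tnfrsf11b at -0.87 (0.0923) were not. Of the 12 fits that left out 1 library, 9 called Mmp13, 8 Spp1, 5 Tnfsf11 and 1 Tnfrsf11b. In Tem1lacZ/lacZ scars Mmp13 was at 35.9, 27.002 and 17.6 CPM in sham and 35.6, 45.1 and 16.8 CPM after traction, and Spp1 at 26.8, 41.7 and 44.3 CPM and 248, 96.0 and 133 CPM. In the same scars Tnfrsf11b was at 41.4, 35.7 and 56.3 CPM in sham and 21.7, 17.5 and 18.8 CPM after traction. Tnfsf11 was at 1.09, 0.332 and 0.868 CPM and 2.29, 7.38 and 0.471 CPM. Spp1 was thus above the sham scars in each stretched scar of both genotypes, and Tnfrsf11b below them in each. Mmp13 and Tnfsf11 overlapped in Tem1lacZ/lacZ.

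Windows of Mmp13 and Spp1 were picked after their values were seen. The RefSeq window of Mmp13 and 1 of the 2 windows of Spp1 held the RUNX motif 1 time each, at -118 and -128 from the start. The single window of Tnfsf11 held 0, as did that of Cebpb, while Ncr1, which was not called, held it in both of its windows, which overlap. Over all genes with a window, 18.9% held the motif in a window. Of the list genes with a window, it was in 0 of 17 cofactors, 1 of 7 inhibitors and 5 of 12 bone and cartilage genes. It was in 1 of 12 blood genes and 7 of 11 cytotoxic genes. Since each list had members without a window, these counts are not compared. The stretches around the motif are given on the strand of the gene with the motif in capitals, beside the share of 16.8% of all windows that held it.

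Mmp13, chr9:7272369-7272428, plus strand: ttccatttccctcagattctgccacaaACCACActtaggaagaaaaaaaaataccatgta
Spp1, chr5:104434956-104435015, plus strand: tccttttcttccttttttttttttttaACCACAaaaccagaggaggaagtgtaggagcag

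A list of 18 genes of the blood lineages in which RUNX1 is known to act had 16 tested members, a median of 0.56 and values from -2 to 2.86. Nfe2, a transcription factor of the megakaryocyte lineage, was the 1 gene called, where 5.61% of all tested genes were called higher. It was at 0.955, 0.841 and 1.29 CPM in Tem1WT/WT sham scars and 17.8, 2.98 and 1.68 CPM after traction, and rose by 2.86 on the log2 scale (SE 0.76, edgeR adjusted p = 0.0439). The value of 17.8 CPM was in the library with the high neutrophil markers, and without it Nfe2 was at 1.16 (adjusted p = 0.124). Of the 12 fits that left out 1 library, 3 called Nfe2.

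A list of 14 genes for cytotoxic lymphocytes, where RUNX3 is known to act, also held Cd4, which is silenced there. With traction in Tem1WT/WT scars edgeR called 0 of them. An unadjusted p under 0.05 was found for 2, and DESeq2 called 1, beside 31.4% and 21.5% of all tested genes. The median of this mixed list was -0.69, with values from -1.54 to 2.22. The lowest p-values belonged to Ncr1, a receptor of natural killer cells, at 2.89, 0.899 and 2.19 CPM in sham and 1.05, 0.662 and 0.349 CPM after traction (log2 fold change -1.54, adjusted p = 0.1004). Itgae, the integrin of resident T cells, was at 27.1, 14.0 and 19.0 CPM and 15.97, 11.7 and 9.98 CPM (-0.67, adjusted p = 0.123). Cd4, which RUNX3 silences in cytotoxic T cells, was at 17.5, 16.1 and 11.3 CPM and 48.2, 16.8 and 15.4 CPM (0.84, adjusted p = 0.211). All 3 overlapped between the groups.

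**Figure D5:**
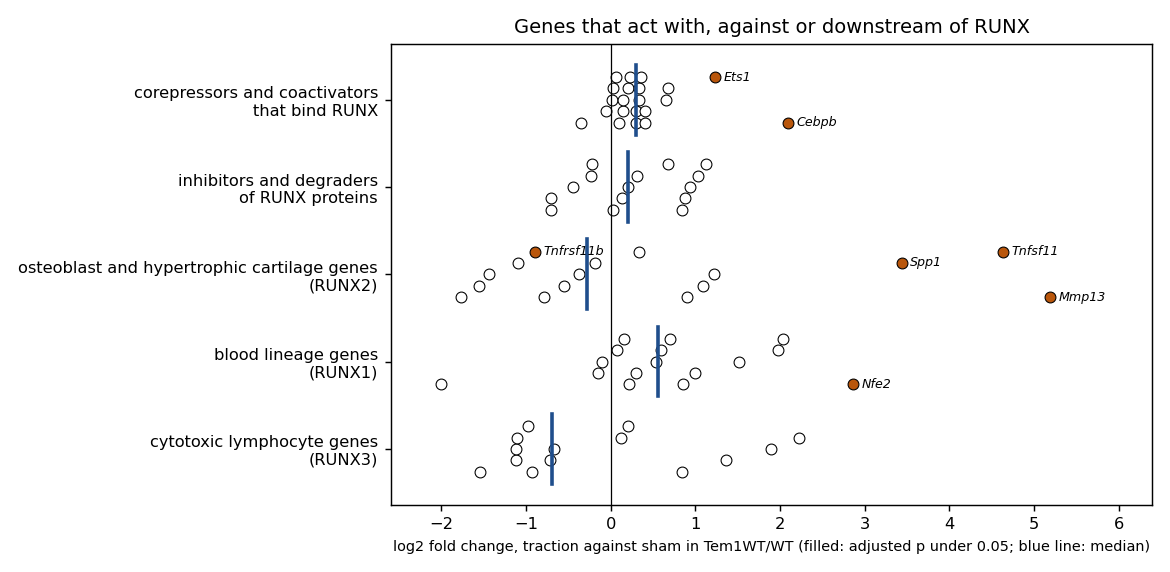
log2 fold change (x axis) for traction against sham in Tem1WT/WT scars of each tested gene in 5 lists (y axis); filled points have an adjusted p under 0.05, and the blue line is the list median. The filled points are Cebpb, Ets1, Mmp13, Tnfsf11, Spp1, Nfe2 and, below 0, Tnfrsf11b.

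No gene of the 5 lists was called by edgeR in the other 4 comparisons. With traction in Tem1lacZ/lacZ scars, an unadjusted p under 0.05 was found for 7 cofactors and 0 inhibitors. It was found for 2 bone and cartilage genes, 2 blood genes and 1 cytotoxic gene, beside 8.12% of all tested genes. In this order the list medians were 0.34, 0.13, 0.37, 0.28 and -0.03. DESeq2 called 0 cofactors, beside 0.149% of all tested genes. Between genotypes after traction, 6 cofactors, 4 inhibitors, 4 bone and cartilage genes, 7 blood genes and 2 cytotoxic genes were at an unadjusted p under 0.05, and DESeq2 called 4, 3, 2, 2 and 0. Over all tested genes 26.1% had such a p and DESeq2 called 12.4%. The list medians there were -0.26, -0.42, 0.01, -0.59 and 0.17. Between genotypes in sham scars, 8 cofactors, 2 inhibitors and 4 bone and cartilage genes had an unadjusted p under 0.05. So did 1 blood gene and 1 cytotoxic gene, beside 11.7% of all tested genes. In this order the list medians were -0.38, -0.22, -0.41, -0.4 and -0.4. DESeq2 called 2 cofactors, beside 0.228% of all tested genes.

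Other transcripts overlap these genes. Runx2os3, an antisense transcript in Runx2, had 0 counts in every library, Supt3, which overlaps the 5′ part of Runx2 on the other strand, had 191 to 354 counts, against 314 to 2095 for Runx2 itself, Gm30281 in Runx1 had 2 to 12, and AI225912 in Cbfb 38 to 122. The strand setting of the counting is not given in the sources used here, so reads of a gene and of a partner on the other strand cannot be told apart.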

How the data were processed

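RNA of 12 scars, 3 mice per group, was sequenced as poly(A) libraries from a stranded kit. The authors trimmed reads with fastp 0.20.0, aligned them with HISAT2 2.1.0 to GRCm38 and counted them with featureCounts 2.0.0 (versions per the submitters' processing notes). The deposited values were raw counts per gene, neither filtered nor normalized. Groups came from the sample labels.

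Counts were analysed in R 4.3.3 with edgeR 4.0.16: genes with low counts were removed with filterByExpr, libraries were scaled by TMM, and a robust quasi-likelihood fit over all 12 libraries gave each contrast and the interaction. p-values were adjusted over all 18853 genes by the Benjamini-Hochberg method, with calls at 0.05. Alternatives were DESeq2 1.42.0, limma 3.58.1 (voom with sample weights), other normalizations and filters, a fit that was not robust, a replicate block, the 6 libraries compared alone, and each library left out in turn. The leaving out of libraries for the gene lists and the overlap of groups without TMM factors were added after the data were seen. DESeq2 was the test of the study itself. Scripts were tested on simulated data.

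The members and lists were chosen with earlier results of these data known. Text names the 4 genes in every comparison, Cd248, list genes that were called or otherwise the 3 with the lowest p for traction in Tem1WT/WT, and per member the 5 genes with the highest r (log2 CPM with a prior count of 2, genes averaging 1 or more). Mmp13 and Spp1 windows were picked later. Tle5 was listed as Aes and Cnmd as Lect1. Exon lengths came from GENCODE vM21 and promoters from RefSeq. No pair of libraries agreed within sampling noise. Each library was 1 mouse, and the depth of 41536788 counts or more sets the counting error.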

Additional observations from a re-analysis of the deposited data

How the results depend on the processing

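The log2 fold changes of the members kept their direction under all settings for traction in either genotype, for the genotypes after traction and for the interaction. In sham scars the difference between genotypes changed sign for Runx1 with limma-voom (-0.06) and for Cbfb with upper quartile normalization (0.02). It also did so with 1 library left out, where Runx1 ran from -0.22 to 0.16 and Cbfb from -0.11 to 0.02. With only the 6 libraries compared, traction in Tem1WT/WT gave 1.30 for Runx1, 1.47 for Runx2 and 1.52 for Runx3, no longer called (edgeR adjusted p = 0.0747, 0.0747 and 0.104), in a fit that called 0 genes. Leaving out 1 library gave 1.02 to 1.45, 1.21 to 1.64 and 0.88 to 1.83 there, and -1.60 to -1.05 for Runx2 and -1.75 to -0.80 for Runx3 between genotypes after traction. DESeq2 called Cbfb for traction (0.34) and the 3 Runx genes between genotypes after traction (-0.81, -1.35 and -1.48). The cause of these shifts was not tested.

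Called list genes for traction in Tem1WT/WT rose with DESeq2 from 0 to 5 for the inhibitors and 4 to 7 for bone and cartilage. They rose from 1 to 5 for blood and 0 to 1 for cytotoxic genes, where DESeq2 called 21.5% of all tested genes. With 1 library left out they ran from 0 to 2 for the cofactors, 0 to 5 for the inhibitors and for bone and cartilage, and 0 to 2 for blood. Those fits called from 0 of 19308 to 2861 of 19400 tested genes. For traction in Tem1lacZ/lacZ, DESeq2 also called 1 bone and cartilage gene, beside 0.149% of all tested genes. Between genotypes after traction it called 4 cofactors, 3 inhibitors, 2 bone and cartilage genes and 2 blood genes, beside 12.4%. In sham it called 2 cofactors, beside 0.228%.

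Over all genes, 1725 were called for traction in Tem1WT/WT (61.3% higher), 4047 by DESeq2 (55.2%), 748 by limma-voom (83.0%), 1011 with every gene of at least 1 count, and 1673 with upper quartile normalization (43.9% higher, all-gene median -0.12). Leaving out 1 library gave 0 to 2861. For traction in Tem1lacZ/lacZ, 0 were called, against 435 by limma-voom, 28 by DESeq2 and 73 without the first Tem1lacZ/lacZ traction library. Between genotypes after traction, 20 were called, against 2334 by DESeq2 and 1421 without the second Tem1WT/WT traction library, which also gave 31 for the interaction. Without TMM factors Runx1 was at 50.5 CPM in Tem1WT/WT sham and Runx3 at 6.70 CPM in Tem1lacZ/lacZ sham scars, and the members whose groups did not overlap went from 4 to 3 for traction in Tem1WT/WT, 2 to 1 in Tem1lacZ/lacZ and 3 to 2 between genotypes after traction.

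The replicate numbers were not taken to pair the mice, since the labels give nothing that same-numbered mice shared and r of their deviations was over 0.1 in 8 of 18 pairs, from -0.324 to 0.250. Of the 18 pairs, 12 correlated best with their own number, a hint from the data. With the replicate block, traction in Tem1WT/WT gave 1.28 for Runx1, 1.45 for Runx2 and 1.46 for Runx3, all called, among 1467 genes, and no member's call changed.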

Other observations

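The marker lists whose sums in Tem1WT/WT scars were not given above moved as follows with traction. Of 6 mast cell markers 1 was called lower (148.7 to 248 CPM in sham and 103 to 236 CPM after traction). Keratinocyte markers had 0 of 6 called (9266 to 15209 and 12992 to 19956 CPM), adipocyte markers 0 of 5 (538 to 593 and 147 to 558 CPM) and skeletal muscle markers 0 of 6 (626 to 7944 and 200.2 to 1394 CPM). In stretched Tem1lacZ/lacZ scars the endothelial sum was 396 to 642 CPM and the fibroblast sum 22725 to 50094 CPM, and the first of these libraries, with the lowest value of Runx1, Runx2 and Runx3 in its group, had the lowest value of both.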
